A study of Homo sapiens with 3 samples.

Results

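The heat shock and DNAJ chaperone genes were examined for FOXM1 ChIP-seq peaks in Huh7, an established human hepatocellular carcinoma line. They were all RefSeq protein-coding genes of build GRCh38 whose symbol begins with DNAJA, DNAJB, DNAJC, HSPA, HSPB, HSPD, HSPE, HSPH, HSP90 or HSF followed by a letter or a number. This spelling rule, which used no measured value, gave 86 of the 20037 protein-coding genes on chromosomes 1 to 22, X and Y. It also took in 3 genes that are no heat shock factor or small heat shock protein, HSPBP1, HSPBAP1 and HSF2BP, and 2 readthrough genes, HSPE1-MOB4 and DNAJC25-GNG10. ChIP-seq sequences the DNA fragments that an antibody pulls down from sheared chromatin. All cells were untreated Huh7 cells. The antibody G-5 against FOXM1 gave 2 libraries, named replicate 2 and replicate 3 in their titles, and 1 input library, made without antibody, has no peak list here. The labels do not say whether the libraries came from separate cultures. Neither a second antibody nor cells lacking FOXM1 were analysed here, so the specificity of the peaks was not tested. Peak lists hold no expression, so the labelled cell type was not checked against its markers.

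FOXM1, a transcription factor of the forkhead family, is best known for switching on the genes that cells need for mitosis. Heat shock proteins are chaperones: they hold, fold or refold other proteins. HSP70 proteins bind short unfolded stretches in an ATP-driven cycle. DNAJ proteins, also called HSP40s, carry a J domain that delivers clients to HSP70 and starts ATP hydrolysis, and HSP110 proteins release the spent nucleotide. HSP90 takes clients further along, HSP60 with its lid HSP10 folds proteins inside mitochondria, and the small heat shock proteins hold unfolded proteins without ATP. Heat shock factors, HSF1 above all, switch many of these genes on by binding heat shock elements, which are inverted repeats of GAA and TTC.

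The replicate 2 list had 8271 peaks and the replicate 3 list 11502. Fold enrichment, the authors' own value, is the height of a peak at its summit over the local background, on a linear scale with a pseudocount of 1, and its median over all peaks was 3.76 in replicate 2 and 3.78 in replicate 3. Every listed peak has a q of about 0.05 or less, and a gene without a peak is one with no listed summit inside it or within 5 kb. Total reads were not used here. Fragment numbers under each summit were rebuilt from the authors' fold and p, and they ranged from 17 to 38 at the peaks of the chaperone genes in replicate 2 and from 15 to 40 in replicate 3. A typical call thus rested on few fragments, and with 2 libraries of 1 group there is no test between groups of samples. Counts are therefore set beside the share of all protein-coding genes called by the same rule.

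Chaperone genes carried peaks at shares near those of protein-coding genes in general. A gene counted as called in a library where a summit lay inside it or within 5 kb. In both libraries 27 of the 86 genes were called (31.4%, exact Clopper-Pearson 95% interval 21.8 to 42.3), against 28.4% of all protein-coding genes. In 21 of these genes the peaks of the 2 libraries overlapped by at least 1 bp (24.4%, against 25.4% of all genes), and in the other 6 they lay apart. Replicate 2 alone called 4 genes (4.65%, against 4.86%) and replicate 3 alone called 14 (16.3%, against 12.8%). The remaining 41 genes had no peak in either list (47.7%, against 53.9%). Taken singly, replicate 2 called 31 genes (36.0%, against 33.2%) and replicate 3 called 41 (47.7%, against 41.2%). Each of these backgrounds lay within the exact interval of the chaperone share, for example 36.8 to 58.7 for replicate 3. These intervals treat genes as independent, although some genes are called by the same locus. They measure no spread between libraries, so they are a description and not a test.

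Gene length enters a window that covers the whole gene, and the chaperone genes were slightly shorter than most. Their median length was 19.8 kb, against 24.1 kb for all protein-coding genes. Overlapping peaks can also be merged into a shared locus, whose midpoint between the summits is then compared with the gene ends. By that rule 17 of the 86 chaperone genes had one within 1 kb of either end (19.8%, exact interval 11.96 to 29.75), against 19.1% of all genes. RefSeq promoter windows give the strand and thus the start for 77 of the 86 genes. Among these, 12 had a shared locus within 1 kb of a start (15.6%, exact interval 8.32 to 25.6), against 20.6% of all genes with a window.

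**Figure D1:**
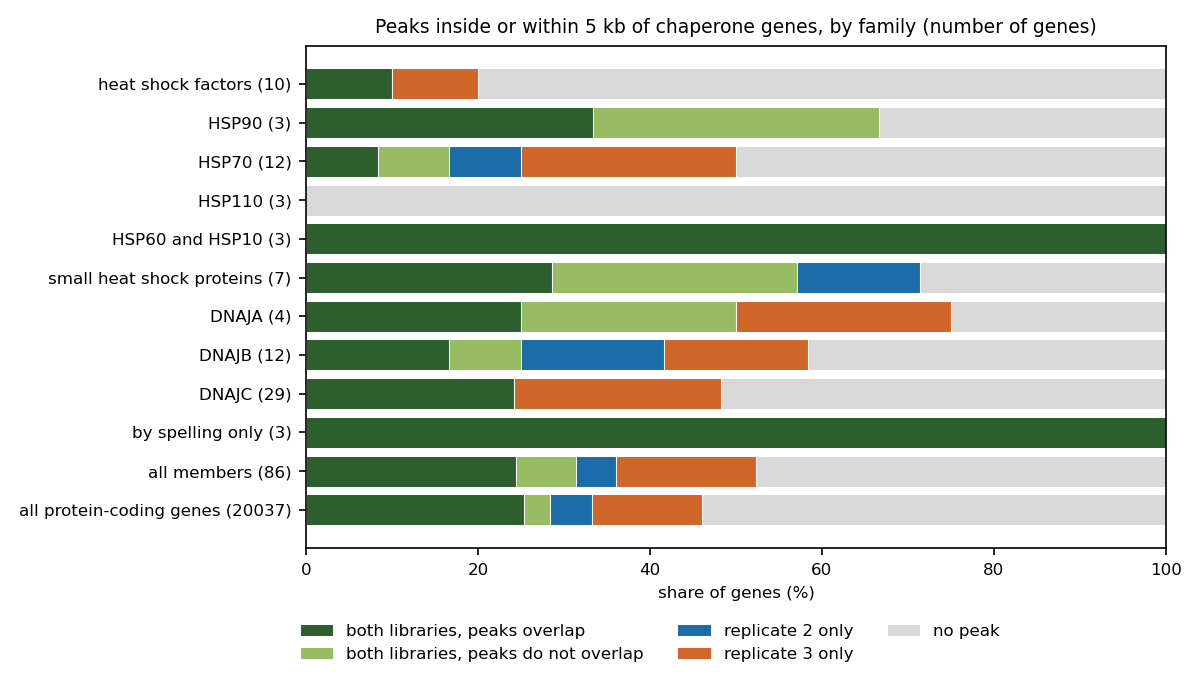
Share of genes (x axis, %) of each chaperone family by call, with the number of genes in brackets and all protein-coding genes in the lowest bar. The bar of all 86 members ends its 2 green segments at 31.4%, and that of all protein-coding genes at 28.4%, while the families, most of them of under 13 genes, range from no called gene to every gene called.

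Of the 10 heat shock factor genes, HSF1 alone was called in both libraries (10.0%, against 28.4% of all genes) and HSF4 in replicate 3 alone. Of the 8 without a peak, 6 were X- and Y-linked copies. No peak lay at HSF2, HSF5 or the X- and Y-linked genes HSFX1, HSFX2, HSFX3, HSFX4, HSFY1 and HSFY2, which include near-identical copies where reads may map to several places. At HSF1, the master regulator of the heat shock response, the shared locus lay across the lower-coordinate end of the gene and beside BOP1, a ribosome biogenesis gene. The fold there was 4.13 for replicate 2 and 2.40 for replicate 3, and −log10 q was 4.87 and 1.79. The rebuilt fragments numbered 28 and 32, with exact Poisson 95% intervals of 18.6 to 40.5 and 21.9 to 45.2. The rebuilt local background was 5.00 fragments in replicate 2 and 11.0 in replicate 3. What made the folds differ was not tested. Replicate 2 had a further peak of fold 3.33 at 65 bp inside HSF1, nearer to HSF1 than to any other gene.

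HSF4, known for its part in lens development, held the highest fold of any chaperone gene. In replicate 3 it was 6.76 with −log10 q of 10.4, above 99.8% of that library's peaks by rank, and replicate 2 had no peak there. It rested on 29 fragments (exact Poisson 95% interval 19.4 to 41.6) over a background of 2.88. The summit lay 31 bp before a RefSeq start of HSF4 and 540 bp from an end of the neighbouring FBXL8, which is nearer than an outer end of HSF4. Its promoter window, shown because the peak covers 165 of its 300 bases, and every window printed below run 5′ to 3′ on the strand of the gene, from 250 bases before the start to 50 after it. They are RefSeq sequences of GRCh38.p14. Capitals mark the letters of any of 7 motifs on either strand: the forkhead core TGTTTA, the heat shock element forms GAANNTTC and TTCNNGAA, the cell cycle element CHR TTTGAA, the CCAAT box CCAAT, the GC box GGGCGG and the E-box CACGTG. Matches may overlap, and CCGCCC and ATTGG are the other strand of the GC box and the CCAAT box.
HSF4 (chr16:67164495-67164794, plus strand): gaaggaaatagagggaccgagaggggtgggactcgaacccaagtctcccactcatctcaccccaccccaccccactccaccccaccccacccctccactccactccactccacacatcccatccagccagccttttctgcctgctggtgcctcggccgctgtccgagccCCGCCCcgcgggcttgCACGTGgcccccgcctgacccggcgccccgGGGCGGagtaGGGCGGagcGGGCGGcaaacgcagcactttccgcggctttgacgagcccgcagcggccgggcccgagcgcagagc
The HSF4 window held 4 GC boxes and 1 E-box, all under the peak, and neither heat shock element form nor the forkhead core. Replicate 3 also had peaks 3907 bp before the nearest HSF4 start (fold 4.18) and 4310 bp beyond the far end of the gene (fold 4.48). The first of these was 55 bp from an end of TRADD and the second 307 bp from a start of NOL3, both neighbouring genes.

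The HSP90 genes differed in where their peaks lay. HSP90AA1, the stress-inducible cytosolic form, had 1 peak in each library, on either side of the inner of its 2 RefSeq starts. The replicate 2 peak (fold 4.53, −log10 q 5.30) had its summit 85 bp after that start and the replicate 3 peak (fold 5.06, −log10 q 6.43) 364 bp before it. The summits were 449 bp apart and the peaks did not overlap, so the libraries called this start but not the same bases. Together they reached into the promoter window from both sides, over 40 of its bases in replicate 2 and 184 in replicate 3. The window is shown because it holds heat shock elements.
HSP90AA1 (chr14:102086995-102087294, minus strand): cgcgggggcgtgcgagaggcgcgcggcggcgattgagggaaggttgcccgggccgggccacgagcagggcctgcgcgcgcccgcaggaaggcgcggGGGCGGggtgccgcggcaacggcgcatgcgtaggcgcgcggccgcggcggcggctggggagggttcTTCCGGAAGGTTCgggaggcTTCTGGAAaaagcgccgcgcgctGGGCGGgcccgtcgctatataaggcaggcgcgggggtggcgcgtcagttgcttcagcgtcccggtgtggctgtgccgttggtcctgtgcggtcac
In it GAANNTTC occurred 1 time and TTCNNGAA 2 times, with 2 GC boxes. The first pair of overlapping heat shock element matches lay under the replicate 3 peak, and the last one, at its border, was not wholly under either peak. HSP90AB1, the constitutive cytosolic form, had a shared locus with closely matched values of 4.89 and 4.81 and summits 2 bp apart. That locus (chr6:44257330-44257649) lay 3688 and 3690 bp beyond the gene and 43 to 45 bp from a start of its neighbour SLC35B2. At a start of HSP90AB1 itself replicate 3 alone had a peak (fold 3.85, 169 bp after the start). HSP90B1, the HSP90 of the endoplasmic reticulum (ER), had no peak.

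Of the 12 HSP70 genes 2 were called in both libraries (16.7%, against 28.4% of all genes) and 6 had no peak (50%, against 53.9%). HSPA8, the constitutive cytosolic HSP70, HSPA9, that of mitochondria, and the inducible HSPA6 and HSPA1A had no peak, nor did HSPA1L and HSPA13. HSPA5, the ER form known as BiP, had a weak peak in replicate 3 alone (fold 3.12, −log10 q 2.48), 275 bp after its start. HSPA1B, the near-identical neighbour of HSPA1A, was called in both libraries at places 7137 bp apart. Its replicate 3 peak (fold 4.97) lay 118 bp after the start and its replicate 2 peak (fold 4.34) 4739 bp beyond the gene. How reads common to HSPA1A and HSPA1B were placed is not given in the sources used here, so which copy the peak belongs to is uncertain.

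Most peaks of any HSP70 gene were those of HSPA12B, a distant HSP70 relative. It had 3 peaks in replicate 2 and 4 in replicate 3. Its locus at the lower-coordinate end (chr20:3732250-3732989) had fold 2.99 in replicate 2 and 4.11 in replicate 3, on 27 and 32 fragments. A second shared locus inside the gene was weaker, with fold 2.56 and 2.79 over backgrounds of 10 and 9 fragments. The highest fold of HSPA12B, 5.48, came from a peak that replicate 3 alone called, 6664 bp inside the gene. Its relative HSPA12A had 2 peaks in replicate 2 alone, of fold 4.78 and 3.50, 167 bp before and 424 bp after an inner start. HSPA2, a form known from the testis, and HSPA14, which acts at the ribosome, were called in replicate 3 alone (fold 4.29 and 3.21). None of the 3 HSP110 genes, HSPH1, HSPA4 and HSPA4L, had a peak, as was so for 53.9% of all genes.

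HSPD1 and HSPE1, which encode HSP60 and HSP10, are neighbours read in opposite directions from one promoter region, and a single shared locus served both. It lay at chr2:197499692-197500049 and was counted also for the readthrough gene HSPE1-MOB4, so these 3 calls rest on 1 place. Replicate 2 gave a fold of 3.27 and replicate 3 a fold of 4.42, with −log10 q of 3.23 and 6.46. The fragments numbered 26 and 30, with intervals of 17 to 38.1 and 20.2 to 42.8. The summits lay 34 and 128 bp before a start of HSPD1 and 505 and 411 bp before that of HSPE1, nearer to HSPD1 in each library. The HSPD1 window is shown because peaks of both libraries cover most of it, 226 of 300 bases in replicate 2 and 259 in replicate 3.
HSPD1 (chr2:197499791-197500090, minus strand): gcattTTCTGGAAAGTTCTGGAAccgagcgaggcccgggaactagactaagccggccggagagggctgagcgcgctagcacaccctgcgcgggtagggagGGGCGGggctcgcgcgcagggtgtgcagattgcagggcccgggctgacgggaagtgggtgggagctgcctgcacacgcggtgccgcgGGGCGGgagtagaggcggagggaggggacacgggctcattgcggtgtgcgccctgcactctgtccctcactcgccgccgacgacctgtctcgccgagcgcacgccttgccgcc
Near its 5′ end stand overlapping heat shock elements, with 1 match to GAANNTTC and 2 to TTCNNGAA, followed by 2 GC boxes and no forkhead core. The GC boxes were under the peaks of both libraries, and the heat shock elements, from base 6 to base 23, lay outside both, with summits at bases 217 and 123 of the window.

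Of the 7 small heat shock protein genes 4 were called in both libraries (57.1%, against 28.4% of all genes), but none of the 4 had overlapping peaks at its own start. HSPB1, which encodes HSP27, had fold 4.74 in replicate 2 at 1068 bp after the start and 4.08 in replicate 3 at 292 bp after it, 776 bp apart. HSPB6 had fold 4.75 in replicate 3 at 64 bp after the start, whereas the replicate 2 peak (fold 3.10) lay 19 bp from an end of the neighbouring PROSER3. HSPB7, known from heart muscle, had an overlapping pair (fold 4.41 and 4.12) outside the end opposite to its start, 961 and 906 bp from it. HSPB9, a testis gene, had an overlapping pair (fold 3.18 and 3.64) that lay 303 and 9 bp from a start of KAT2A, a histone acetyltransferase gene. HSPB8, the partner of BAG3, was called in replicate 2 alone (fold 3.72, 185 bp after the start), and HSPB2 and HSPB3 had no peak.

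The 4 DNAJA genes are the closest relatives of the bacterial DnaJ. DNAJA2, a general cytosolic co-chaperone, had a weak overlapping pair 288 and 201 bp after its start, with fold 2.81 in replicate 2 and 3.12 in replicate 3 and −log10 q of 1.58 and 2.48. DNAJA1 was called in both libraries 19228 bp apart: replicate 3 had a peak 28 bp before the start (fold 4.22) and replicate 2 one 4566 bp beyond the gene (fold 4.71). DNAJA4 had 2 peaks in replicate 3 alone (fold 4.80 and 3.81), both within 1 kb of a start. DNAJA3, the mitochondrial member, had no peak.

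Of the 12 DNAJB genes 3 were called in both libraries (25%, against 28.4% of all genes). DNAJB2, which works with the proteasome, had fold 4.08 and 3.64 with summits 44 and 229 bp after the start. DNAJB5 had fold 2.47 and 3.60 at 460 and 502 bp before the start, and its replicate 2 call was marginal, at −log10 q 1.39 where the lowest of that list was 1.32. DNAJB6, an inhibitor of protein aggregation, had 2 replicate 2 peaks around its start (fold 2.99 and 3.41) and a replicate 3 peak of fold 4.66 deep inside the gene, 69159 bp after the start. DNAJB1, the main heat-inducible HSP40, had a replicate 3 peak alone (fold 4.18, −log10 q 6.23, 33 fragments), 83 bp after one of its starts. Single-library calls were also made at DNAJB12 (3.06, replicate 3) and DNAJB14 (3.94, replicate 2), a pair of ER membrane proteins. The replicate 2 call at DNAJB11, an ER lumen protein, had fold 4.35 and lay 3349 bp before its start but 32 bp from a start of TBCCD1. DNAJB4, DNAJB7, DNAJB8, DNAJB9 and DNAJB13 had no peak. The windows of DNAJB2 and DNAJB1 are shown because the first is the only chaperone window touched by peaks of both libraries that has a forkhead core, and the second holds heat shock elements.
DNAJB2 (chr2:219279116-219279415, plus strand): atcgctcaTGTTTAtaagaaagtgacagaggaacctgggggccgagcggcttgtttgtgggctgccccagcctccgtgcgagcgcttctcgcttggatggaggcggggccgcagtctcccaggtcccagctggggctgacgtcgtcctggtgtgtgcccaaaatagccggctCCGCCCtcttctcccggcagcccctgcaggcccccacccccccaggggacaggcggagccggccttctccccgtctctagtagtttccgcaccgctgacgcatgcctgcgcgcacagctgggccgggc
DNAJB1 (chr19:14518348-14518647, minus strand): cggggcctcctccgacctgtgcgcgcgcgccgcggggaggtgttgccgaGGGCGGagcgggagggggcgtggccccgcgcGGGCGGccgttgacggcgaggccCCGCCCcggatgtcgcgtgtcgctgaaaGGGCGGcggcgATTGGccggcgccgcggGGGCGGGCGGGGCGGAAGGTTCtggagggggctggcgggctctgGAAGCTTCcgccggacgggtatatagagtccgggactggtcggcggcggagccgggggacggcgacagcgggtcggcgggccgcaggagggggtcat
The DNAJB2 window held 1 forkhead core at bases 9 to 14, outside the peaks of both libraries, and 1 GC box. In the DNAJB1 window GAANNTTC occurred 2 times, the CCAAT box 1 time and the GC box 7 times. The replicate 3 peak covered its last 15 bases and none of these matches.

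The DNAJC genes are the largest and most varied family, since they share little beyond the J domain. Of 29 genes 7 were called in both libraries, all 7 with overlapping peaks (24.1%, against 28.4% of all genes called in both and 25.4% with overlapping peaks). A further 7 were called in replicate 3 alone (24.1%, against 12.8% of all genes). Each of the first 7 had at least 1 shared locus at most 1 kb from an end. They were DNAJC5, DNAJC10, DNAJC11, DNAJC21, DNAJC22, DNAJC25 and the readthrough gene DNAJC25-GNG10, which has the locus of DNAJC25. DNAJC25 had the largest fold of a shared locus in replicate 3 among all chaperone genes, 5.51, against 3.41 in replicate 2, with summits 161 and 30 bp after the start. The fragments numbered 40 (interval 28.6 to 54.5) and 31 (21.1 to 44.0) and the backgrounds were 5.49 and 7. Replicate 2 alone had a stronger peak inside the gene, of fold 5.65, 10314 bp after the start.

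DNAJC10, an ER reductase that helps remove misfolded proteins, had fold 3.20 in replicate 2 and 4.36 in replicate 3. Its summits were 1 and 50 bp after the start, the closest pair to any start. DNAJC11, a protein of the mitochondrial membranes, had 3.80 and 3.20 with summits 107 and 60 bp before the start. DNAJC5, the cysteine string protein of synaptic vesicles, had 3.31 and 3.74 with summits 71 and 84 bp after it. DNAJC21, which acts in ribosome maturation, had a pair of shared loci at its start: the first (fold 2.90 and 4.19) had summits 131 bp after and 38 bp before the start and the second (3.50 and 3.45) lay 525 and 519 bp after it. DNAJC22 had a shared locus of fold 4.41 and 4.31 at 238 and 99 bp outside its lower-coordinate end, and a weaker one (3.26 and 3.93) farther out. These loci thus differ in strength between the libraries in no common direction: DNAJC11 was higher in replicate 2, and DNAJC5, DNAJC10 and DNAJC25 in replicate 3.
DNAJC25 (chr9:111631084-111631383, plus strand): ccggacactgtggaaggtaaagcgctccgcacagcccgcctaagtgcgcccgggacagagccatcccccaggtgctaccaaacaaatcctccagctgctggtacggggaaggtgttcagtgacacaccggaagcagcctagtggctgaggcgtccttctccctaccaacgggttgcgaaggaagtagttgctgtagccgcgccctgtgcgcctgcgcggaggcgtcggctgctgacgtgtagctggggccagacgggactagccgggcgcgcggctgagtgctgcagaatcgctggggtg
DNAJC10 (chr2:182716007-182716306, plus strand): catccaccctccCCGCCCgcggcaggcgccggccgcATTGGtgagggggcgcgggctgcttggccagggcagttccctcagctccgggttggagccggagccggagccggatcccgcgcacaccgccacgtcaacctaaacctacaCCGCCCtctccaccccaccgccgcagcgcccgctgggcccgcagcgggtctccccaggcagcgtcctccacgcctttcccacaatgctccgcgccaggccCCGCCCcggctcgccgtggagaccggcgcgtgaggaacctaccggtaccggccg
DNAJC5 (chr20:63894876-63895175, plus strand): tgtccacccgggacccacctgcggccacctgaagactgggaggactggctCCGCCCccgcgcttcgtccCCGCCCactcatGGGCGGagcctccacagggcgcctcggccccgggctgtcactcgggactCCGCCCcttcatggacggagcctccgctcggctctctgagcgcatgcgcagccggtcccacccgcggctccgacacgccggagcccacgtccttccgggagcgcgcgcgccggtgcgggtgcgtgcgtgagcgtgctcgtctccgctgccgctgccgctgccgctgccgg
These 3 windows differed in their motifs. The DNAJC25 window held none of the 7 motifs, the DNAJC10 window 3 GC boxes and 1 CCAAT box, and the DNAJC5 window 4 GC boxes alone. In the DNAJC10 window the GC box at bases 247 to 252 lay under peaks of both libraries. Its GC box at bases 147 to 152 lay under the replicate 3 peak alone, and its other matches under no peak. In the DNAJC5 window the GC box at bases 131 to 136 lay under the replicate 3 peak alone, and the others under no peak.

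In the DNAJC family the calls of replicate 3 alone fell partly at starts and partly at neighbours. At a start lay the peaks of DNAJC3, an ER co-chaperone (fold 4.28, 19 bp before it), DNAJC13, an endosomal protein (4.25, 61 bp after it), DNAJC16 (2.90, 85 bp after it) and DNAJC14 (3.50, 34 bp before it). Away from the gene lay those of DNAJC7 (4.86, 156 bp from a start of NKIRAS2), DNAJC4 (3.73, 402 bp from a start of VEGFB) and DNAJC6, the clathrin-uncoating auxilin (3.38, 86 bp from a start of LEPR). The 15 DNAJC genes without a peak (51.7%, against 53.9% of all genes) included DNAJC9, a histone chaperone, DNAJC19 and DNAJC15 of the mitochondrial import motor, and DNAJC2 at the ribosome.

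The 3 genes taken in by spelling were all called in both libraries, each by a shared locus nearest to another gene. HSF2BP, a meiotic recombination gene, had fold 5.54 in replicate 2 and 3.001 in replicate 3, at 2 and 78 bp from an end of RRP1B. HSPBP1, an HSP70 exchange factor, had 4.99 and 4.34 beyond its end, 450 and 470 bp from a start of PPP6R1. HSPBAP1 had 2.27 and 3.09 at 160 and 15 bp from a start of SLC49A4. Replicate 2 alone also had a stronger peak inside HSPBAP1 (fold 3.95), nearest to that gene. Without these 3 and the 2 readthrough genes, 22 of 81 genes were called in both libraries (27.2%, against 28.4% of all genes).

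**Figure D2:**
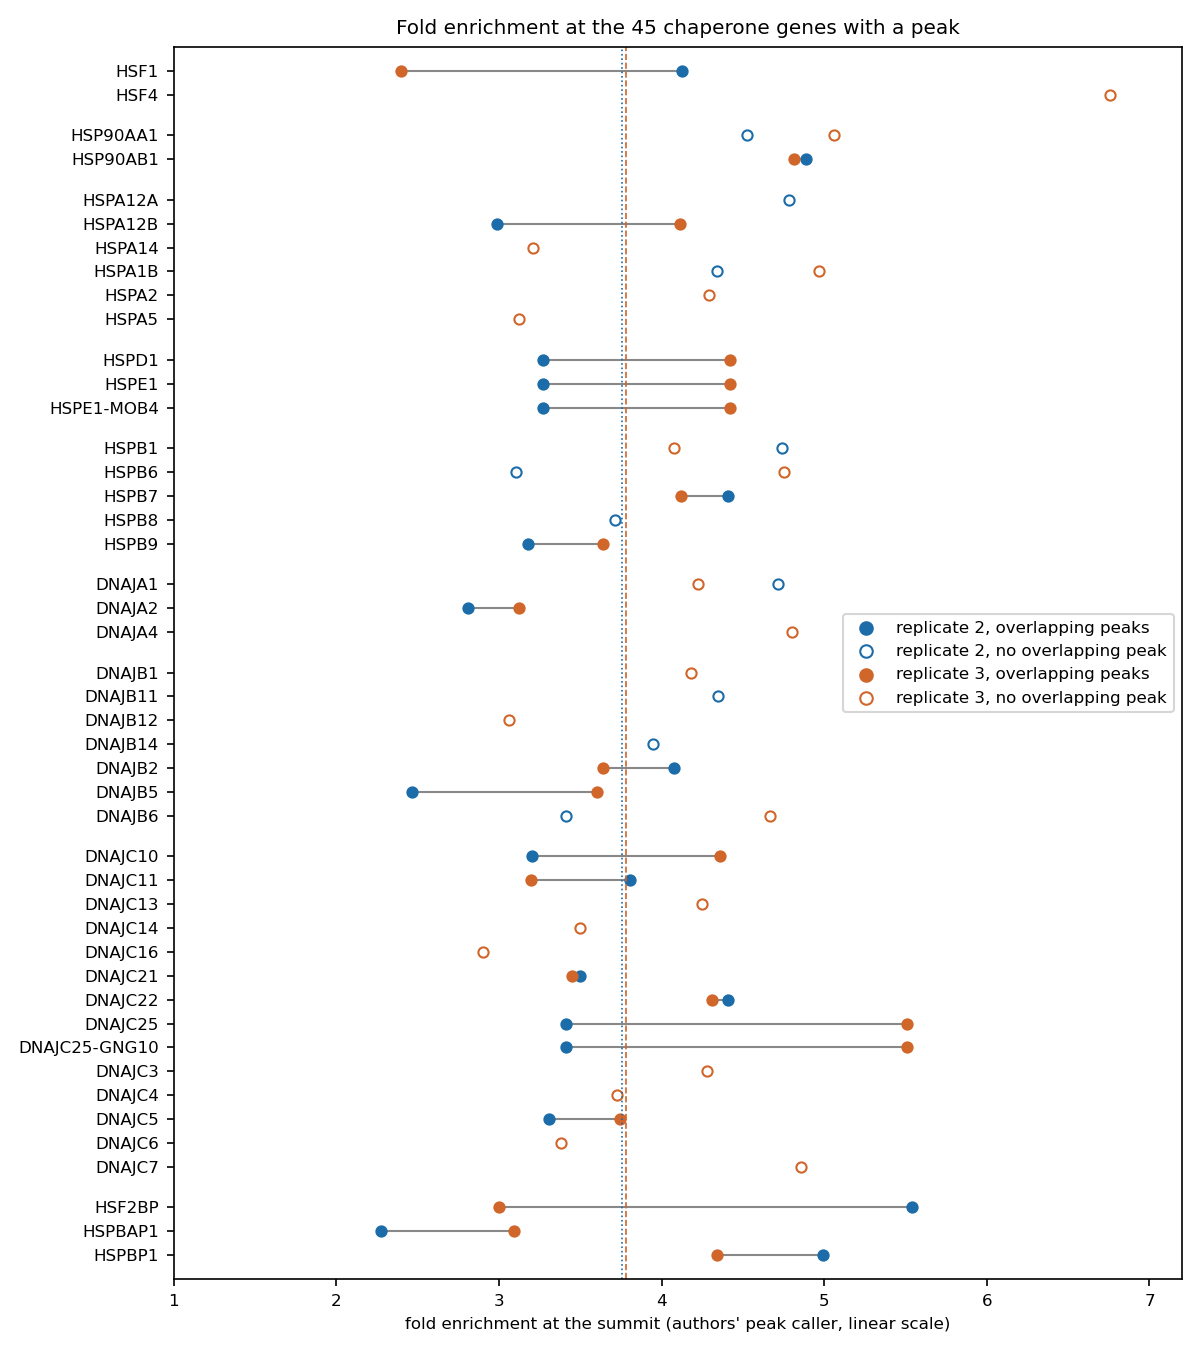
Fold enrichment at the summit (x axis, linear) for each of the 45 chaperone genes with a peak, in replicate 2 (blue) and replicate 3 (orange). Filled points joined by a line are the overlapping peaks of the shared locus with the highest lower fold, open points are the highest peak of a library where no peaks overlap, and the dotted and dashed lines are the medians of all peaks (3.76 and 3.78). HSF4 in replicate 3 lies farthest right at 6.76, and most joined pairs straddle or lie below the medians.

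The strength of the chaperone peaks went different ways against all peaks in the 2 libraries. Counting each peak once, replicate 2 had 38, with a median fold of 3.50 against 3.76 for all its peaks, and replicate 3 had 56, with 4.003 against 3.78. The 21 distinct shared loci had a median lower fold of 3.20, against 3.56 over all 5380 shared loci, scaffolds included. Of the 21, 12 were higher in replicate 3 and 9 in replicate 2, while 2897 of all 5380 were higher in replicate 3.

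The libraries differed most at HSF2BP and HSF1. The absolute log2 ratio of the folds at a shared locus had a median of 0.25 over the 21 loci and 0.21 over all shared loci, where 10% exceeded 0.54. HSF2BP had a log2 ratio of replicate 3 over replicate 2 of -0.88, and 0.9% of all shared loci had a larger difference. HSF1 had -0.78 (2.0% larger) and DNAJC25 had 0.69 (3.8% larger). At HSF2BP the fragments were 38 and 20, with intervals of 26.9 to 52.2 and 12.2 to 30.9, over backgrounds of 5.00 and 5.12. HSP90AB1 and DNAJC21 had the closest pairs, each at -0.02 for their closest locus.

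**Figure D3:**
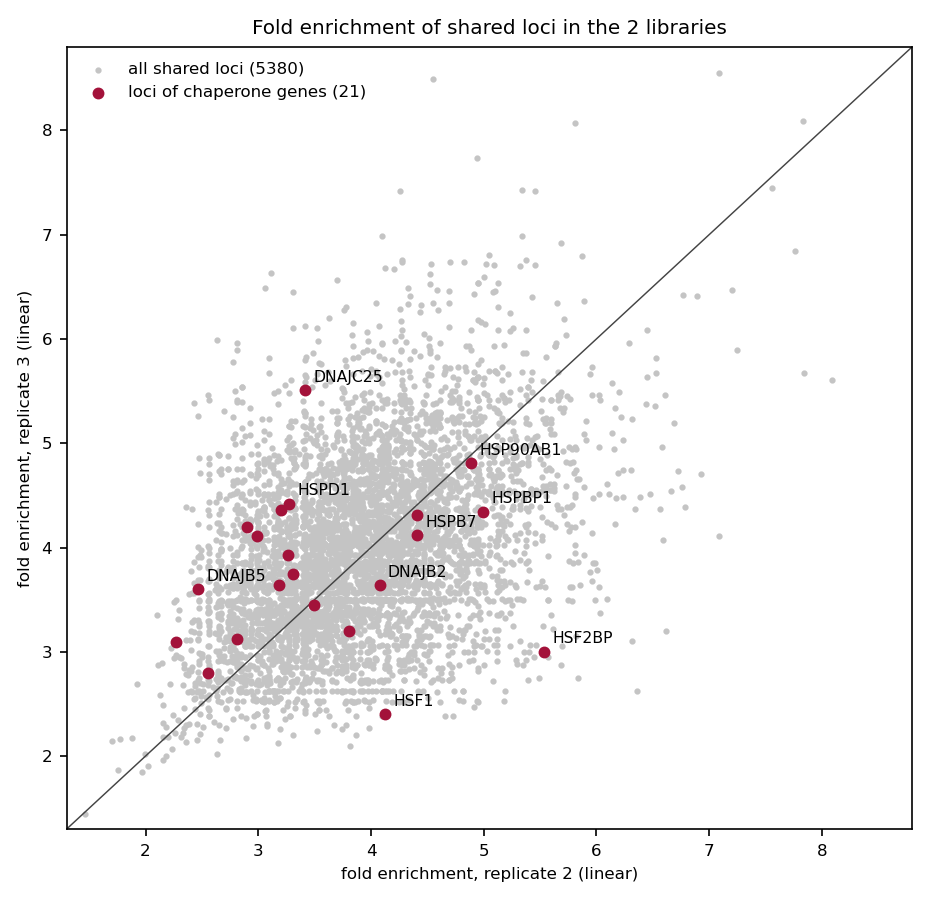
Fold enrichment in replicate 2 (x axis) and replicate 3 (y axis), linear, of all 5380 shared loci (grey) and the 21 loci of chaperone genes (red), with the line of equal values. The red points lie within the grey cloud, and HSF2BP (5.54 and 3.001) and HSF1 (4.13 and 2.40) are the farthest below the line.

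Some peaks of the chaperone genes lay at starts, and some were nearest to other genes. The same positions were not counted over all peaks, so these peak counts are a description. Of the 38 peaks in replicate 2, 17 had their summit within 1 kb of a RefSeq start of a chaperone gene, and 28 of the 56 in replicate 3 did. The median distance to the start was 167 bp and 143 bp, and the summit lay after the start in 12 of 17 and 16 of 28. By gene, replicate 2 had such a peak at 17 of 77 genes (22.1%, against 27.0% of all genes with a window), replicate 3 at 28 (36.4%, against 34.3%) and both libraries at 13 (16.9%, against 22.4%). Of the 21 shared loci, 15 were nearest to an end of a chaperone gene in both libraries and 5 to an end of a neighbour, namely those at HSPB9, HSPBP1, HSF2BP, HSPBAP1 and HSP90AB1. At HSF1 the nearest end was that of BOP1 for both peaks of the pair, and that of HSF1 for the further replicate 2 peak. With each peak given only to the gene of the nearest end, 17 chaperone genes were called in both libraries (19.8%, against 22.6%).

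**Figure D4:**
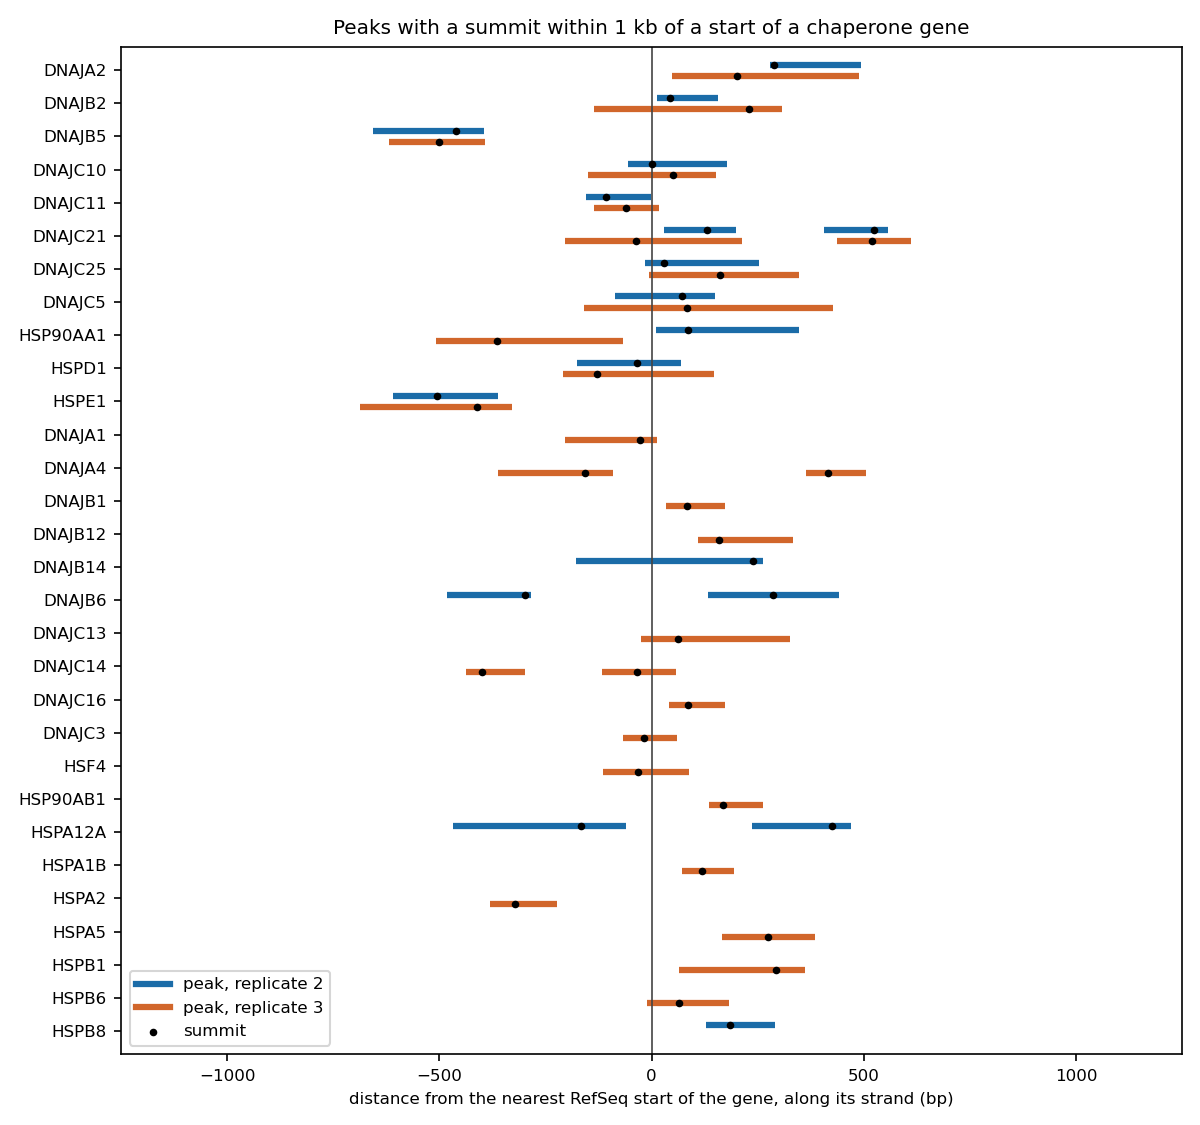
Extent of each peak (bars, replicate 2 blue, replicate 3 orange) and its summit (black points) along the distance from the nearest RefSeq start of the gene (x axis, bp, positive in the direction of transcription), leaving out the 2 readthrough genes. The upper 11 genes have such peaks in both libraries, overlapping in all but HSP90AA1, whose peaks lie on either side of the start.

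Promoter letters were compared over 101 RefSeq windows of the 77 genes and 22199 windows of all protein-coding genes. HSPB2, DNAJC24, DNAJC1, HSF2BP, HSPA14, HSF1, HSPA12B, DNAJC5B and DNAJC22 had no window. The heat shock element form GAANNTTC was in 18 chaperone windows (17.8%, against 5.7% of all windows) and TTCNNGAA in 13 (12.9%, against 6.7%). The forkhead core TGTTTA was in 10 (9.9%, against 9.5%), CHR in 4 (4.0%, against 12.4%) and the GC box in 66 (65.3%, against 56.3%). The CCAAT box was in 43 (42.6%, against 34.7%) and the E-box in 15 (14.9%, against 8.3%). Peaks of both libraries overlapped 9 of the 101 windows by at least 1 bp (8.91%, against 11.9% of all windows), those of HSP90AA1, HSPD1, DNAJB2, DNAJC5, DNAJC10, DNAJC11, DNAJC21, DNAJC25 and, with the same bases, DNAJC25-GNG10. Of these, 7 held a GC box (77.8%, against 90.6% of all windows under peaks of both libraries), 1 a forkhead core (11.1%, against 3.0%) and 2 the form GAANNTTC (22.2%, against 2.0%). These 2 were HSP90AA1 and HSPD1. A whole GC box lay under peaks of both libraries in the HSPD1 and DNAJC10 windows only. In those of HSP90AA1, DNAJB2, DNAJC5 and DNAJC21 one lay under the replicate 3 peak alone, and that of DNAJC11 lay under neither. The forkhead core, of DNAJB2, and the GAANNTTC of HSPD1 lay outside the peaks of both libraries. The GAANNTTC of HSP90AA1 lay under the replicate 3 peak alone. The 4 windows with this form under a peak of 1 library, DNAJA1, DNAJA4, DNAJB1 and HSPB6, were all touched by replicate 3 peaks. At DNAJB1 the peak did not reach the matches, and whether it did at DNAJA1, DNAJA4 and HSPB6 was not examined. In the 79 windows under no peak it stood in 12 (15.2%, against 6.7%), HSPA8, HSPA6, HSPA1A and HSPB1 among them. A match is a description of letters and not a binding site.

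Other genes of the pathway were read by the rule of a summit inside or within 5 kb, against the same 28.4% of all genes called in both libraries. Of 76 genes in 6 lists 34 were called in both (44.7%), a description with no test. The list of ER folding and the unfolded protein response had 13 of 18 called, led by CANX, the lectin chaperone calnexin (4.33 in replicate 2 and 4.50 in replicate 3), PDIA6, a disulfide isomerase (4.82 and 4.20), CALR, calreticulin (4.14 and 4.52), and ERN1, the stress sensor IRE1 (4.10 and 4.59). The chaperone genes named above as ER proteins were mixed. HSP90B1 was called in no library, HSPA5, DNAJC3 and DNAJB12 in replicate 3 alone, DNAJB11 and DNAJB14 in replicate 2 alone, and DNAJC10 in both. HSP90 co-chaperones had 6 of 16 called, among them FKBP5 (4.74 and 5.41), FKBP4 (5.85 and 4.65), UNC45A (3.66 and 4.16) and STIP1, which bridges HSP70 and HSP90 (3.57 and 4.43). HSP70 exchange factors and partners had 6 of 13 called. SIL1, the exchange factor of HSPA5, had 4.07 and 4.37, BAG5 had 3.17 and 3.31, GRPEL1, that of mitochondria, 3.29 and 2.98, and BAG4 2.78 and 3.19, and the pairs of SIL1 and BAG4 did not overlap. Mitochondrial proteostasis genes had 5 of 11 called, led by TIMM44 (4.96 and 4.88) and SPG7 (4.67 and 4.89), followed by AFG3L2 (3.27 and 3.63) and TRAP1, the mitochondrial HSP90 (3.17 and 4.10). The chaperonin TRiC and prefoldin had 4 of 14 called: CCT7 (3.98 and 4.59), TCP1 (3.66 and 4.37), PFDN4 (3.03 and 4.46) and CCT6A (2.56 and 3.38). None of the 4 crystallins and other small heat shock proteins was called in both. Which of these peaks lay nearer to a neighbouring gene was not examined, and 21 of the 76 had a shared locus at most 1 kb from a gene end (27.6%, against 19.1% of all genes).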

How the data were processed

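Peaks of 2 anti-FOXM1 ChIP-seq libraries of Huh7 cells were read as deposited, 1 list per library. CASAVA 1.4, BWA, MACS2 2.2.7.1 and GRCh38 are named in the submitters' processing notes, with no role or order. Filters and the handling of duplicate reads are not given in the sources used here, and repeated sequence can gain or lose peaks with such choices. By the layout of the format, the authors' lists give fold enrichment (a linear ratio), −log10 p and −log10 q, read at each summit. No use was made of the deposited score, 10 times the −log10 q, and the summit offset, a deposited value of another kind of unit in bp, gave the summit. Fragments were rebuilt as a count whose scaled value gives the deposited fold and whose Poisson tail gives the deposited −log10 p within 0.001. This worked for 100% of peaks, with scales of 0.848 and 0.869, and assumes a control that the labels do not name. A simulation drawn from the same formula gave back 100% of 972 peaks, which checks the arithmetic and not that assumption. With the p values shuffled among peaks, 1.14% of peaks in replicate 2 and 1.21% in replicate 3 were rebuilt. Intervals cover counting error only, and whether the counts of the libraries differ was not tested.

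Coordinates are 1-based. Gene positions, strands and promoter windows came from RefSeq GRCh38.p14. The members and lists were chosen with earlier results of these data known. The text names each member called in both libraries or in 1, and up to 4 called genes of each pathway list by the lower fold. No test between samples was possible with 1 group of 2 libraries. Alternatives were windows, thresholds on q and fold, definitions of a shared peak, the gene list and each library alone. Python 3.11.15, pandas 2.3.3 and SciPy 1.17.1 were used, and overlaps equalled those of bedtools 2.31.1.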

Additional observations from a re-analysis of the deposited data

How the results depend on the processing

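Of the 86 chaperone genes, 27 were called in both libraries (31.4%, against 28.4% of all genes). The number was 13 (15.1%, against 18.1%) inside genes only, 5 (5.8%, against 7.41%) with −log10 q of at least 5 and 10 (11.6%, against 10.1%) with fold of at least 4. It was 15 (17.4%, against 15.6%) with summits within 100 bp, 14 (16.3%, against 16.8%) with reciprocal overlap of at least 50% and 17 (19.8%, against 22.6%) with each peak given to the gene of the nearest end. The share of all genes fell under each of these settings too. Of the genes, 17 had a shared locus at most 1 kb from an end (19.8%, against 19.1%). This second number was 1 with −log10 q of at least 5 (1.2%, against 4.40%) and 2 with fold of at least 4 (2.3%, against 5.77%). With a library left out, the first number ran from 31 (36.0%, against 33.2%) to 41 (47.7%, against 41.2%). The second ran from 21 (24.4%, against 25.1%) to 32 (37.2%, against 32%). The median lower fold, 3.31, ran from 3.95 to 4.33, since the lower of 2 values is then no longer taken. The highest of these came without replicate 2 and so from replicate 3. The other alternatives kept both numbers within 1.5 times. Without the genes taken in by spelling and the readthrough genes, these numbers were 22 of 81 (27.2%, against 28.4%) and 14 (17.3%, against 19.1%). With the peak nearest to a gene end, the lower fold of 5 of the 27 genes changed by at least the standard deviation of its 2 libraries. Smaller changes came at DNAJC22 (4.334 to 4.308) and HSPBP1 (4.344 to 4.115). No paired analysis was possible because there was 1 group of 2 ChIP libraries. Summits held few fragments, so weak peaks can be missed.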
